A study of Danio rerio with 36 samples.

Results

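The 5 genes described here, of 8793 with a probe set of their own symbol on the array, are myhz1.3, myl1, mylpfa, mylz3 and actc1b. They encode proteins of the contractile filaments of muscle. They were chosen by the size of their rise between stages in control embryos and by their lower values at 21-somites under the highest dose, so both of those contrasts are given as descriptions without a test. Their members on the array were the probe sets (groups of short probes that read out 1 transcript) that the platform annotation gives to exactly 1 of these symbols. There were 13 such probe sets among the 15617 in the table: 1 each for myhz1.3, myl1 and mylz3, 2 for mylpfa and 8 for actc1b. Of the 13, 4 for actc1b are controls of the manufacturer and stayed out of the fit, which left 9 in the test of 15502 probe sets. Where a gene had several, the probe set with the highest mean over all arrays stands for it in counts over genes.

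In striated muscle, thick filaments of myosin pull on thin filaments of actin within repeating units called sarcomeres. A myosin molecule holds heavy chains, which carry the motor and the rod, and on each heavy chain an essential and a regulatory light chain, which stiffen and tune the lever arm. In the zebrafish trunk most muscle cells become fast fibres, which form within the somites after a superficial layer of slow fibres has arisen, and the filament genes are switched on as the cells differentiate.

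Expression was measured in whole embryos of the line Tg(fli1a:EGFP)y1, in which the fli1a promoter drives a green fluorescent protein in blood vessel cells. All groups carried this transgene, and the controls were embryos in medium alone. The other groups received methyl tert-butyl ether, or MTBE, a compound added to petrol, at 0.00625, 0.625 or 5 mM. Exposure was in closed glass vials from about 3 hours post fertilization (hpf) until collection at 6-somites (about 15 hpf), 21-somites (about 24 hpf) or Prim-5 (about 30 hpf), at 25 °C. The design text calls 5 mM the dose that causes vascular lesions and 0.625 mM a dose with no observed adverse effect. Each of the 36 arrays came from a pool of 15 embryos, with 3 arrays for each of the 12 groups of stage and dose. In whole embryos, fewer muscle cells and less RNA in each muscle cell cannot be told apart.

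The values are on the log2 scale as deposited, and levels of different probe sets are not set against each other. Replicate arrays had correlations from 0.984 to 0.9958. The control arrays numbered replicate 1 stood apart at 6-somites and at 21-somites. The mean over 24 yolk and lipid transport genes was 5.13 in the first of these, against 5.67 to 6.05 in the other arrays of its stage, and 5.12 in the second, against 6.25 to 6.63. For the probe sets that stand for the member genes, control steps between stages and dose differences at 21-somites are given with and without them. At 6-somites this was done for only some dose differences. Dose differences of lists of other genes are given only with them. As a background level served a pair of probe sets for red fluorescent proteins, since the labels name only a green one, and the higher of the pair lay between 2.47 and 3.54 depending on the array.

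The heavy chain gene myhz1.3 encodes the motor of fast fibres. Its control values were 2.95, 2.14 and 2.27 at 6-somites, 9.28, 8.70 and 8.96 at 21-somites, and 10.69, 10.64 and 10.43 at Prim-5. At 0.00625 mM they were 2.34, 2.51 and 2.90, then 8.46, 8.59 and 8.56, then 10.57, 10.54 and 10.51. The 3 stages lay in separate ranges in every dose group. At 0.625 mM the values were 2.70, 2.65 and 2.61 at 6-somites, 8.20, 8.86 and 8.65 at 21-somites, and 10.60, 10.29 and 10.57 at Prim-5. At 5 mM they were 2.44, 2.29 and 2.02, then 8.33, 8.70 and 8.34, then 10.64, 10.51 and 10.43. At 6-somites only 1 of 12 arrays exceeded both red fluorescent probe sets, so the starting level of myhz1.3 was not measured above background and only a lower bound can be given for the first fold change.

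The light chain gene myl1 encodes an essential light chain of fast muscle. Its control values were 2.22, 1.93 and 2.77 at 6-somites, 9.08, 8.67 and 8.60 at 21-somites, and 10.06, 9.92 and 9.63 at Prim-5. None of its 12 arrays at 6-somites exceeded both red fluorescent probe sets. Under MTBE, myl1 ran from 1.89 to 2.49 at 6-somites, from 8.47 to 8.82 at 21-somites and from 9.72 to 10.02 at Prim-5. Every array of a later stage was higher than every array of the stage before it.

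The gene mylpfa encodes the fast regulatory light chain that kinases phosphorylate. Its brighter probe set read 2.28, 2.42 and 2.74 in controls at 6-somites, 7.41, 6.71 and 7.15 at 21-somites, and 8.93, 8.99 and 8.97 at Prim-5. In its MTBE arrays the ranges were 2.09 to 2.94, 6.44 to 7.13 and 8.71 to 9.15. Here too the stages did not overlap, and none of 12 arrays at 6-somites exceeded both red fluorescent probe sets. The dimmer mylpfa probe set had stage medians of 2.87, 6.23 and 8.54 over 12 arrays each and kept the same order of stages.

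The gene mylz3 encodes a further essential light chain of fast muscle. Its controls read 3.54, 3.07 and 3.91 at 6-somites, 6.83, 6.44 and 6.75 at 21-somites, and 9.08, 9.10 and 9.15 at Prim-5. At 5 mM it read 3.75, 4.05 and 4.17, then 6.15, 6.20 and 5.74, then 9.06, 9.13 and 9.0. All 12 arrays at 6-somites exceeded both red fluorescent probe sets, so for mylz3 both steps between stages start from a measured level. The margin was small, with mylz3 from 3.07 to 4.17 and the red fluorescent level from 2.66 to 3.54 at this stage. At 0.00625 mM the values were 3.29, 3.31 and 3.64, then 5.89, 6.05 and 6.27, then 9.10, 9.0 and 9.07. At 0.625 mM they were 3.67, 3.80 and 3.84, then 6.05, 6.60 and 6.43, then 9.17, 9.13 and 9.01. At Prim-5 the SD within a dose group of mylz3 was between 0.03 and 0.08, against 0.19 to 0.28 at 21-somites.

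The gene actc1b encodes an alpha actin of the thin filament, named for the heart and also used in zebrafish skeletal muscle. The probe set that stands for it read 5.58, 5.62 and 5.74 in controls at 6-somites, 8.89, 9.12 and 9.17 at 21-somites, and 10.39, 10.33 and 10.51 at Prim-5. At 5 mM it read 5.25, 5.65 and 5.55, then 8.64, 8.91 and 9.08, then 10.32, 10.57 and 10.27. It lay above both red fluorescent probe sets in every array, and the stages did not overlap at any dose. The values at 0.00625 mM were 5.87, 5.91 and 6.06, then 9.09, 9.05 and 9.12, then 10.48, 10.29 and 10.25. Those at 0.625 mM were 5.65, 5.78 and 5.99, then 9.38, 9.22 and 9.41, then 10.46, 10.50 and 10.34.

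**Figure D1:**
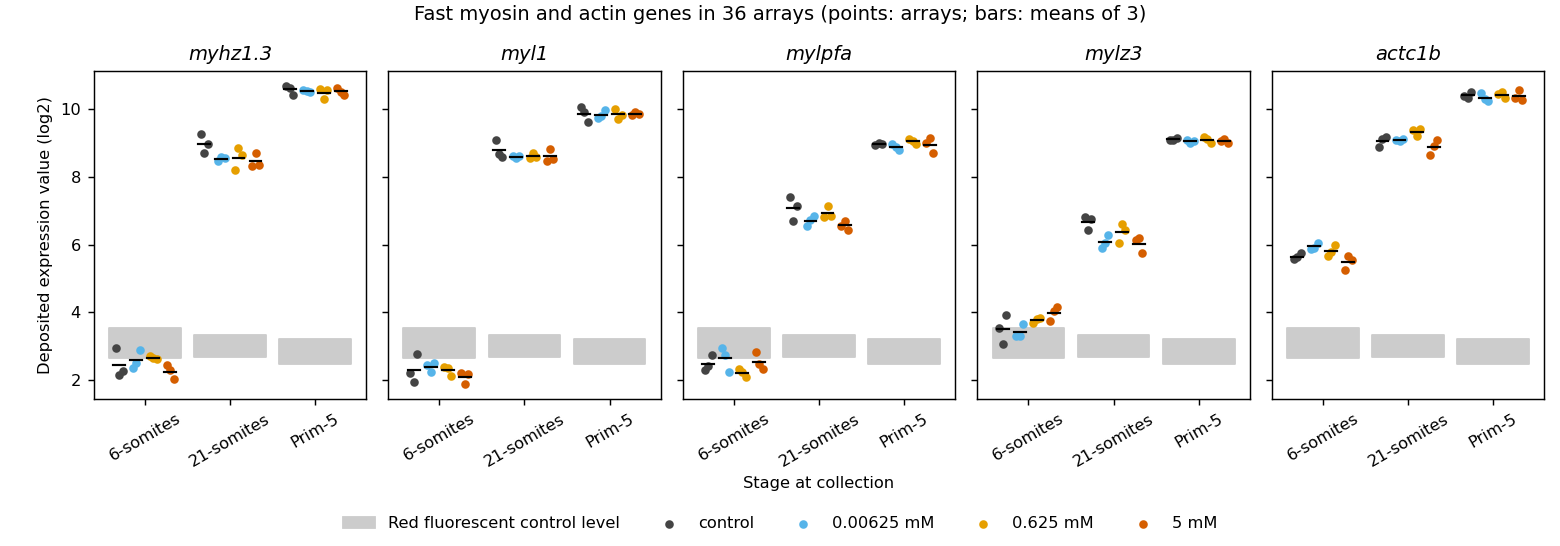
Deposited log2 value (vertical axis) of 1 probe set for each of the 5 genes in all 36 arrays, by stage (horizontal axis) and MTBE dose (colour). Points are arrays, short bars are means of 3 arrays, and the grey band spans the higher of 2 red fluorescent control probe sets over the 12 arrays of a stage. Each gene is higher at each later stage, and myhz1.3, myl1 and mylpfa start in or below the grey band.

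The control steps between stages are described without a test, as they chose the genes. From 6-somites to 21-somites, control means of myhz1.3 differed by a log2 value of 6.53 ± 0.17 (SE, n = 3 arrays a group), and those of myl1 by 6.48 ± 0.15. With each 6-somites array set at the red fluorescent level where it lay below it, myhz1.3 was at least 68.1-fold higher, myl1 at least 63.1-fold and mylpfa at least 19.5-fold. The genes measured above background at both stages were 8.97-fold (mylz3) and 10.7-fold (actc1b) higher. From 21-somites to Prim-5 the control difference was 1.61 for myhz1.3, 1.08 for myl1, 1.87 for mylpfa, 2.44 for mylz3 and 1.35 for actc1b on the log2 scale. Without both controls that stood apart, the first step had bounds of at least 62.6-fold for myhz1.3, 54.9-fold for myl1 and 16.8-fold for mylpfa, and folds of 8.60 for mylz3 and 11.1 for actc1b, and the second step had log2 differences of 1.76, 1.23, 2.04, 2.51 and 1.27 in the same order of genes. The order of the genes differed between the steps: mylz3 had the smallest of the 5 log2 differences in the first and the largest in the second. Its first step started close to background.

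Whether the same steps were present in embryos held in MTBE was tested with limma over all probe sets at 0.00625 and 0.625 mM, in arrays that the choice of genes did not use. From 6-somites to 21-somites 7 of the 9 member probe sets were higher with an adjusted p under 0.05 at both doses, where 11.2% and 10.8% of all probe sets were higher. The same 7 were higher from 21-somites to Prim-5 at both doses, against 4.9% and 5.86% of all probe sets. These 7 are all probe sets in the test except 2 of actc1b, which are described below. At 5 mM the arrays at 21-somites, which end the first step and begin the second, took part in choosing the genes, so both steps are given as descriptions. The same 7 probe sets were higher in both, beside 12.6% and 5.38% of all probe sets called higher, and nothing is read from that count.

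In the first step myl1 rose at 0.00625 and 0.625 mM (limma, adjusted p = 1.78e-27 and 9.02e-28), and so did myhz1.3 (limma, adjusted p = 2.07e-25 and 2.72e-25). Their starting levels lay at background, so only bounds are given: at least 40.3-fold and 41.3-fold for myl1, and at least 38.8-fold and 39.8-fold for myhz1.3. The brighter probe set of mylpfa rose by at least 10.9-fold and 12.8-fold. For the genes measured at both stages, actc1b rose by 3.14 ± 0.12 and 3.53 ± 0.12 on the log2 scale (SE, n = 3 arrays a group), or 8.81-fold and 11.5-fold. The rise of mylz3 was 2.66 ± 0.16 (limma, adjusted p = 3.97e-16) and 2.59 ± 0.16 (limma, adjusted p = 7.87e-16), or 6.30-fold and 6.01-fold. Its starting level lay close to background. At 5 mM, as a description, the log2 difference of mylz3 was 2.04 and that of actc1b 3.39, while myl1 was at least 41.2-fold, myhz1.3 at least 37.2-fold and mylpfa at least 10.1-fold higher. These bounds cannot be set against those of controls. The brighter red fluorescent probe set had 6-somites means of 2.81 in controls and 3.26, 3.25 and 3.24 at rising doses. Without the bound, the log2 difference in controls and at rising doses was 6.48, 6.21, 6.33 and 6.51 for myl1. For myhz1.3 it was 6.53, 5.96, 5.91 and 6.21, and for mylpfa 4.61, 4.06, 4.71 and 4.04.

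From 21-somites to Prim-5 the order was different. Here mylz3 had the largest rise of the 5 genes at both lower doses, by 2.98 ± 0.16 at 0.00625 mM (limma, adjusted p = 6.86e-17) and 2.74 ± 0.16 at 0.625 mM (limma, adjusted p = 8.18e-16). At 0.625 mM mylpfa followed with 2.11 ± 0.16 and myhz1.3 with 1.92 ± 0.17, and the smallest rises were those of myl1, 1.24 ± 0.15, and actc1b, 1.1 ± 0.12. At 5 mM, as a description, the log2 differences were 3.03 for mylz3, 2.39 for mylpfa, 2.07 for myhz1.3, 1.51 for actc1b and 1.27 for myl1.

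As a share of the whole log2 difference from 6-somites to Prim-5, the first step held 85.7% for myl1, 80.2% for myhz1.3, 71.7% for actc1b, 71.1% for mylpfa and 56.5% for mylz3 in controls. Without both controls that stood apart these shares were 83.6%, 79.0%, 73.2%, 68.1% and 55.3%. For myhz1.3, myl1 and mylpfa this share depends on a starting level that lay at background, and for mylz3 on one close to it. In MTBE arrays the share for mylz3 was 47.1% at 0.00625 mM, 48.5% at 0.625 mM and 40.2% at 5 mM. That for myl1 lay between 83.2% and 83.7% at the 3 doses.

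**Figure D2:**
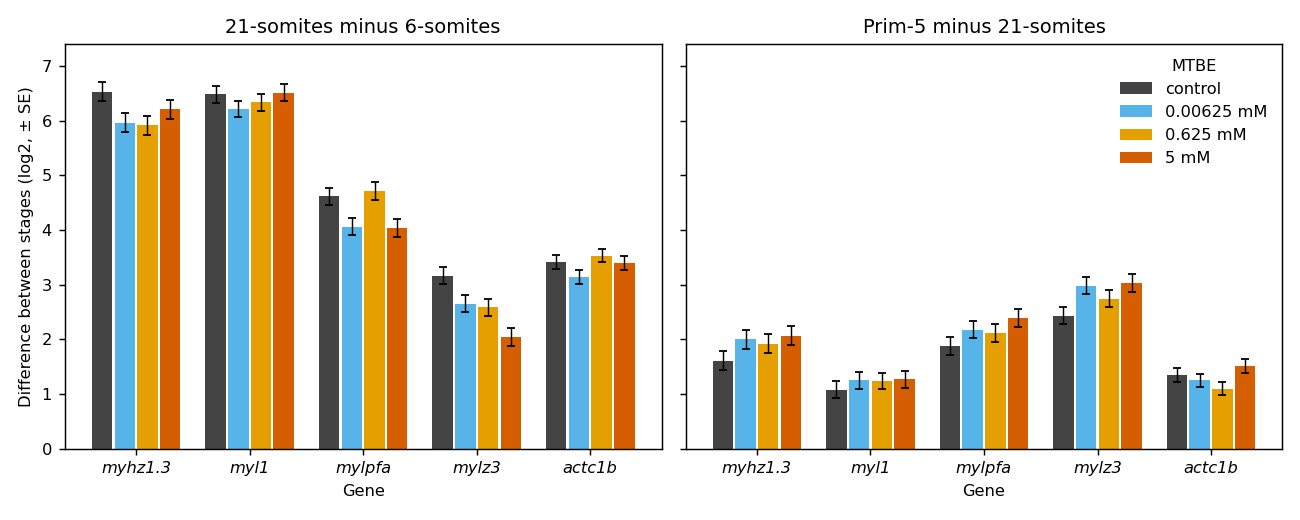
Log2 difference between consecutive stages (vertical axis, bars from 0, error bars SE of the limma fit, 3 arrays a group) for the 5 genes at each dose (colour). The left panel is 21-somites minus 6-somites and the right panel is Prim-5 minus 21-somites. At 5 mM the differences are descriptions, since its arrays at 21-somites took part in choosing the genes. The bar of mylz3 is the shortest of the 5 genes on the left at 5 mM, with 2.04, and the tallest on the right, with 3.03.

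The probe sets of actc1b did not all move the same way. Of its 8 probe sets, 6 were higher at each later stage: the medians over 12 arrays of another one in the test were 5.63, 8.91 and 10.29, and those of the manufacturer's probe set AFFX-Dr-acta1-3_at, named for the 3′ end of the transcript, were 5.95, 9.43 and 10.82. The manufacturer's probe set for the 5′ end, AFFX-Dr-acta1-5_at, had medians of 2.96, 5.86 and 7.09. The other 2, DrAffx.2.100.A1_at and DrAffx.2.100.S1_at, went the other way, with medians of 3.33, 2.66 and 2.26 and of 4.01, 3.15 and 2.36. The first of this pair exceeded both red fluorescent probe sets in 9, 2 and 1 of 12 arrays at the 3 stages, and the second in 11, 5 and 1.

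Between 6-somites and 21-somites, where 13.3% of all probe sets were lower at 0.00625 mM and 10.4% at 0.625 mM, both probe sets of this pair fell at these doses. At 0.625 mM DrAffx.2.100.S1_at fell by 1.21 ± 0.30 on the log2 scale (limma, adjusted p = 0.0031) and DrAffx.2.100.A1_at by 0.94 ± 0.25 (limma, adjusted p = 0.0051). At 0.00625 mM DrAffx.2.100.S1_at fell by 1.00 ± 0.30 (limma, adjusted p = 0.014) and DrAffx.2.100.A1_at by 0.68 ± 0.25 (limma, adjusted p = 0.044). Without replicate 3 of 21-somites at 0.00625 mM 0 of these 2 falls passed, and without any other 1 of the 6 arrays 1 passed. These falls end at or near background. At 21-somites DrAffx.2.100.A1_at exceeded the red fluorescent level in 0 of 3 arrays at each of these doses. With those arrays set at that level it was at least 1.33-fold lower at 0.00625 mM and 1.31-fold lower at 0.625 mM. The second value is no bound, since at 0.625 mM only 2 of 3 arrays at 6-somites exceeded that level. For DrAffx.2.100.S1_at 1 of 3 arrays exceeded it at each of these doses, and with the others set at that level it was 1.85-fold lower at both. At 5 mM the log2 differences of the pair were -0.44 for DrAffx.2.100.S1_at and -0.54 for DrAffx.2.100.A1_at, as descriptions. Their probe sequences and strand were not analysed here, so whether they read actc1b was not tested.

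**Figure D3:**
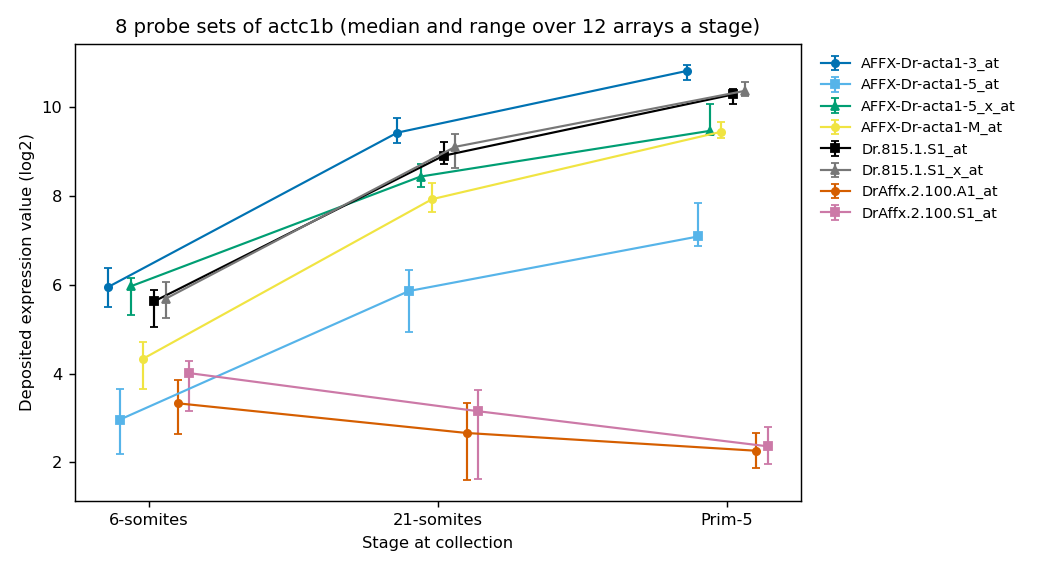
Deposited log2 value (vertical axis) of the 8 probe sets annotated to actc1b by stage (horizontal axis). Points are medians over the 12 arrays of a stage with all doses pooled, bars run from the lowest to the highest array, and points are shifted sideways for legibility. The medians of 6 probe sets rise from left to right and those of the 2 DrAffx.2.100 probe sets decline, to 2.26 and 2.36 at Prim-5.

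One further probe set is annotated to 6 heavy chain genes together, myhz2, myhc4, myha, myhz1.3, myhz1.2 and myhz1.1, and so is no member. In the RefSeq gene table of assembly GRCz12tu these 6 are consecutive protein-coding genes, and their signals cannot be told apart on this probe set. Its 12 arrays lay between 3.41 and 4.34 at 6-somites, between 8.39 and 9.64 at 21-somites and between 10.83 and 11.31 at Prim-5, which is the order of stages seen for myhz1.3. At 21-somites its mean at 5 mM was 0.71 below that of controls on the log2 scale, a description only, and 0.55 below without control replicate 1.

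Each dose was compared with the controls of its stage to see whether MTBE changed the level of these genes. No member was called: 0 of the 9 probe sets passed an adjusted p of 0.05 in limma in any of the 8 tested contrasts with controls, in the contrasts of 5 mM with both lower doses at 6-somites and Prim-5, or in the 2 tests of whether the effect of a lower dose differed between stages. The control arrays in the contrasts with controls and in the tests between stages took part in choosing the genes. Those results are not independent of that choice. The background was also low. At 6-somites 0.29%, 0.0129% and 0% of all probe sets were called at 0.00625, 0.625 and 5 mM, at 21-somites 0% at each dose, and at Prim-5 0%, 0% and 0.00645%. The contrasts of 5 mM with both lower doses called 0%, 0% and 0.00645% at the 3 stages, and the 2 tests between stages 0%. With no adjustment, 2134, 1067 and 1334 of 15502 probe sets had a p under 0.05 at 6-somites, 852, 919 and 1163 at 21-somites, and 313, 535 and 578 at Prim-5. In the contrasts with the lower doses there were 1135, 427 and 744, and in the tests between stages 1277 and 867.

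The clearest pattern by dose was at 21-somites, where the means of all 4 myosin genes were lower than in controls at each of the 3 doses, without passing the test at the lower doses. Without control replicate 1, which stood apart, this no longer held at 0.625 mM, where mylpfa was at 0.01 and myl1 at -0.02. The 3 doses share the same 3 control arrays, which also took part in choosing the genes, so they are not independent of each other. At 0.00625 mM mylz3 read 5.89, 6.05 and 6.27, each below the lowest control of 6.44. The log2 difference was -0.60 ± 0.16 (SE, n = 3 arrays a group; limma, adjusted p = 0.85). The same held for myhz1.3 at this dose, with 8.46, 8.59 and 8.56 against a lowest control of 8.70, and a difference of -0.44 ± 0.17 (limma, adjusted p = 0.86). These were 2 of 9 member probe sets whose arrays lay below all controls, where 5.73% of all probe sets did so. Nothing is read from that count, since these controls took part in choosing the genes.

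At 0.625 mM and 21-somites the arrays of all 4 myosin genes overlapped those of controls, with differences of -0.41 ± 0.17 for myhz1.3, -0.17 ± 0.15 for myl1, -0.16 ± 0.16 for mylpfa and -0.31 ± 0.16 for mylz3. The probe set that stands for actc1b read 9.38, 9.22 and 9.41, above all 3 controls, with a difference of 0.28 ± 0.12 (limma, adjusted p = 0.83). That was 1 of 9 member probe sets above all controls, against 5.24% of all probe sets, and nothing is read from that count. Of the other actc1b probe sets at 0.625 mM, only the manufacturer's AFFX-Dr-acta1-M_at also lay above all controls, at 0.33. The arrays of the rest overlapped the controls, with differences from -0.10 (AFFX-Dr-acta1-5_x_at) to 0.43 (AFFX-Dr-acta1-5_at). At 0.00625 mM the difference of the probe set that stands for actc1b was 0.03 ± 0.12.

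At 5 mM and 21-somites, the contrast that took part in choosing the genes, the log2 differences were -0.64 for mylz3, -0.52 for myhz1.3, -0.52 for mylpfa, -0.18 for myl1 and -0.18 for actc1b. All 3 arrays of mylz3 lay below the controls, and those of the probe sets that stand for the other 4 genes overlapped them. It was 1 of 9 member probe sets in the fit, where 7.83% of all probe sets lay below all controls, and nothing is read from that count. The dimmer mylpfa probe set was at -0.30. Other actc1b probe sets ran from -0.34 (AFFX-Dr-acta1-5_at) to 0.45 (DrAffx.2.100.S1_at). Among them the arrays of AFFX-Dr-acta1-5_x_at, outside the fit and at -0.27, lay below all controls. Set against the control difference from 21-somites to Prim-5, the differences of the probe sets that stand for the genes amounted to -32.4% for myhz1.3, -27.9% for mylpfa, -26.3% for mylz3, -16.9% for myl1 and -13.5% for actc1b. Without control replicate 1 they were -21.1%, -17.7%, -22.4%, -2.87% and -21.1% in the same order of genes, so that the order depends on this array.

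For the 4 myosin genes part of these differences rests on control replicate 1, the array low in yolk transcripts. It was the highest of the controls for all 4 at 21-somites. Without it the difference at 5 mM was -0.56 for mylz3, -0.37 for myhz1.3, -0.36 for mylpfa and -0.04 for myl1. For actc1b the difference at 5 mM was larger in size without this array, -0.27 in place of -0.18. At 0.00625 mM it was then -0.52 for mylz3, -0.29 for myhz1.3, -0.22 for mylpfa and -0.04 for myl1. At 0.625 mM it was -0.26 for myhz1.3, -0.23 for mylz3, -0.02 for myl1, 0.01 for mylpfa and 0.19 for actc1b. Below both remaining controls lay mylz3 and myhz1.3 at 0.00625 mM, 2 of 9 member probe sets against 11.8% of all, and mylz3 and actc1b at 5 mM, 2 of 9 beside 14.4% of all. The actc1b arrays at 0.625 mM still lay above both, 1 of 9 against 8.99% of all. Nothing is read from these counts, as the controls took part in choosing the genes. With control replicate 1 included, the median difference across the 24 yolk and lipid transport genes was 0.33 at 5 mM and 0.52 at both lower doses. The median over all probe sets was between -0.02 and -0.01. The part of the yolk difference in the muscle values was not tested.

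A score of developmental stage is given beside these values at 21-somites. It is the mean log2 value of 300 probe sets that were higher, minus that of 300 that were lower, in Prim-5 than in 6-somites controls, with muscle genes left out. At 21-somites it was 0.61 to 0.65 in controls, 0.49 to 0.64 at 0.00625 mM, 0.53 to 0.61 at 0.625 mM and 0.43 to 0.57 at 5 mM, so that all 5 mM arrays lay below all controls. Its part in the muscle values was not tested.

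**Figure D4:**
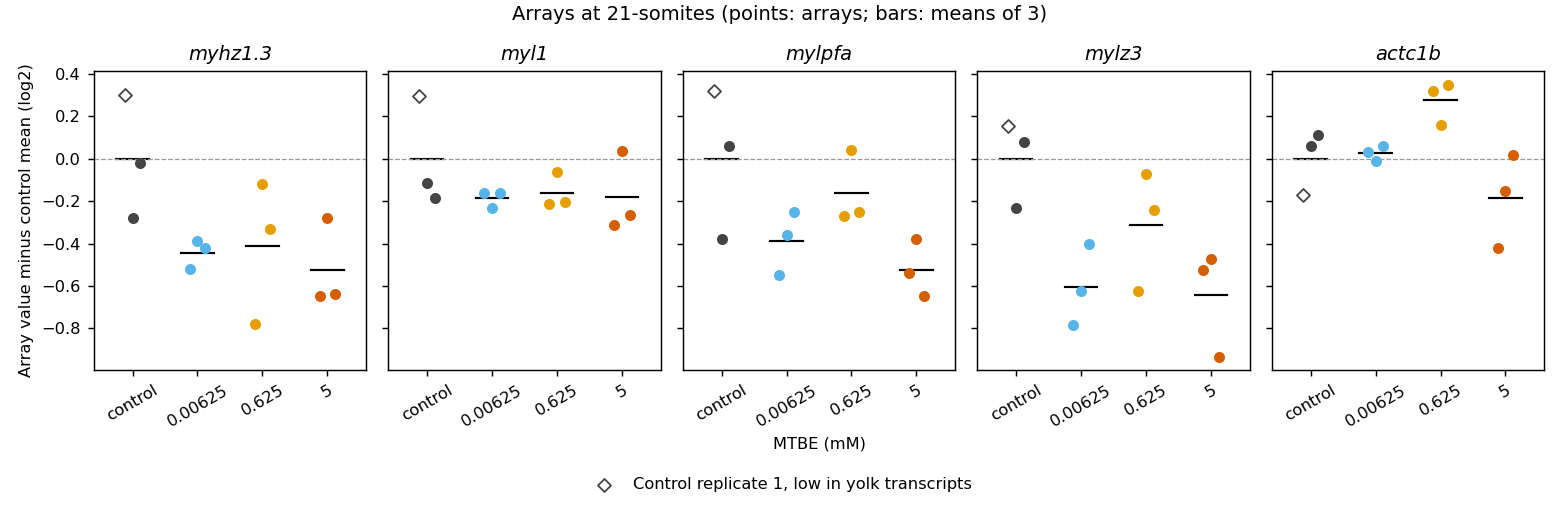
Value of each array at 21-somites minus the mean of the 3 controls (vertical axis, log2) by MTBE dose (horizontal axis, mM). Each of the 5 genes is shown by the probe set that stands for it. Points are arrays, short bars are means of 3, and the open diamond is control replicate 1, low in yolk transcripts. The 0.00625 and 5 mM arrays of mylz3 lie below all its controls, and the 0.625 mM arrays of actc1b lie above all its controls.

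The dosed groups at 21-somites were also compared with each other, which leaves the control arrays out, although the 5 mM arrays are those that took part in choosing the genes. Relative to the mean of both lower doses, 5 mM differed by -0.34 ± 0.11 for actc1b, -0.25 ± 0.14 for mylpfa, -0.18 ± 0.14 for mylz3, -0.10 ± 0.15 for myhz1.3 and -0.01 ± 0.13 for myl1 (± SE). The value given for actc1b is that of the probe set that stands for it. Its other rising probe set in the fit was at -0.10 ± 0.11. The manufacturer's actc1b probe sets ran from -0.69 (AFFX-Dr-acta1-5_at) to -0.15 (AFFX-Dr-acta1-5_x_at). DrAffx.2.100.A1_at was at 0.07 and DrAffx.2.100.S1_at at 0.26, so the size for actc1b depends on the probe set. All these values are descriptions for the same reason.

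At 6-somites the differences ran in both directions. The control arrays of this stage also took part in choosing the genes, so nothing is read from counts of arrays above or below them. For mylz3 5 mM was higher by 0.48 ± 0.16 (limma, adjusted p = 0.39), with values of 3.75, 4.05 and 4.17 against 3.54, 3.07 and 3.91, which overlap. The dimmer mylpfa probe set read 3.39, 3.42 and 3.24 at 0.00625 mM against 2.84, 2.73 and 2.81 in controls, a difference of 0.56 ± 0.16 (limma, adjusted p = 0.11). Those arrays did not overlap, and neither did those of actc1b, with a difference of 0.31 ± 0.12 (limma, adjusted p = 0.25), and of DrAffx.2.100.A1_at. These were 3 of 9 member probe sets above all controls at 0.00625 mM, where 8.74% of all probe sets were. The difference of 0.31 is that of the probe set that stands for actc1b. Its other rising probe set in the fit was at 0.16 ± 0.13 (limma, adjusted p = 0.63), with overlapping arrays. The arrays of DrAffx.2.100.S1_at, at 0.33, and of the manufacturer's actc1b probe sets overlapped the controls too. At 6-somites the dimmer mylpfa probe set exceeded both red fluorescent probe sets in 5 of 12 arrays, and DrAffx.2.100.A1_at in 9 of 12. The higher of the red fluorescent pair itself had means of 3.26 at 0.00625 mM, 3.25 at 0.625 mM and 3.24 at 5 mM, against 2.81 in controls. The part of this background difference in the values near background, those of mylz3 among them, was not tested. The brighter mylpfa probe set differed by 0.16 ± 0.16 at this dose, and the arrays overlapped. Without control replicate 1, which stood apart, myhz1.3 went from 0.13 to 0.38 at 0.00625 mM and from 0.20 to 0.45 at 0.625 mM, and its arrays then lay above both remaining controls at both doses, though none exceeded the red fluorescent level. There were then 4 of 9 member probe sets above the controls at 0.00625 mM, against 14.2% of all probe sets, and at 0.625 mM 1 above, against 12.4%, and 1 below, against 8.67%. The last was the brighter mylpfa probe set, which went from -0.26 to -0.35 and lay at background too. At 5 mM myhz1.3 went from -0.20 to 0.04, and mylz3 from 0.48 to 0.50.

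Relative to both lower doses at 6-somites, 5 mM differed by -0.40 ± 0.11 for actc1b (limma, adjusted p = 0.32) and by 0.40 ± 0.14 for mylz3 (limma, adjusted p = 0.52). The values of actc1b at 5 mM all lay below those at the lower doses, the closest pair of arrays both rounding to 5.65, and this was the 1 of 9 member probe sets whose arrays did not overlap, against 1.09% of all probe sets lower. The stage score at 6-somites used other probe sets, those that differed between the controls of both later stages. Its values are therefore not set against the scores given above. It ran from -2.50 to -2.24 in controls and from -2.18 to -2.11 at 0.00625 mM. At 0.625 mM it ran from -2.35 to -2.13, and at 5 mM from -2.26 to -2.23. Its part in these differences was not tested.

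By Prim-5 the groups lay close together. For the probe sets that stand for the 5 genes the log2 differences from controls were between -0.10 and 0.08 at the 3 doses. Other probe sets of these genes reached larger differences, with overlapping arrays. The dimmer mylpfa probe set was at 0.22 at 0.625 mM, and AFFX-Dr-acta1-5_at at 0.40 at 0.00625 mM. At 5 mM the 95% confidence interval ran from -0.37 to 0.28 for mylz3, from -0.41 to 0.29 for myhz1.3 and from -0.27 to 0.22 for actc1b. The test of whether the effect of a lower dose differed between stages gave mylz3 an F of 3.73 at 0.00625 mM (limma, adjusted p = 0.57) and of 3.33 at 0.625 mM (limma, adjusted p = 0.88). It covers all 3 stages at once, and the change from 21-somites to Prim-5 alone was not tested. Its control arrays took part in choosing the genes, so nothing is read from these F values. For 5 mM this test took part in choosing the genes and is not given.

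The myosin genes had the same highest array in some groups. How often this holds for other genes was not counted. In 4 of the 12 groups a single array was the highest for all 4 myosin genes, and in 1 group a single array was the lowest for all 4. At 21-somites the highest array was control replicate 1, 0.625 mM replicate 2 and 5 mM replicate 2. The highest array for actc1b was another one in each of these groups.

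The genes whose pattern over the 12 groups was most like that of each member were found among 8788 genes by the root mean square of the log2 difference between centred group means. The calcium pump gene atp2a1, which returns calcium to the sarcoplasmic reticulum of fast fibres, was nearest to myl1 at 0.24 and to myhz1.3 at 0.27. The next for both were the embryonic globin genes hbbe3 and hbae3, at 0.68 or more. For mylpfa the nearest were hbae3 at 0.31, the collagen gene col1a1a at 0.41 and hbbe3 at 0.47. Nearest to mylz3 lay the muscle creatine kinase genes ckmb at 0.21 and ckma at 0.32, and then the matrix gene matn4 at 0.48. For actc1b these were the tropomyosin gene tpma at 0.15, the gap junction gene gja1b at 0.17 and the collagen gene col1a2 at 0.18. Between the members themselves, myhz1.3 and myl1 were closest at 0.30 and myl1 and mylz3 farthest apart at 1.56.

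Other genes of the contractile apparatus were read from lists written from textbook knowledge, but with earlier results of these data known. Their values are given for 0.625 mM. At this dose 10.8% of all probe sets were higher and 10.4% lower in the first step, and 5.86% higher and 5.45% lower in the second, and the counts of each list stand beside these shares. Of the other fast myosin and sarcomeric actin genes 4 were on the array, and all 4 rose from 6-somites to 21-somites. The light chain genes myl13 and myl10 rose by 3.97 and 1.87 on the log2 scale, and the actin genes acta1a and actc1a by 1.88 and 0.73. From 21-somites to Prim-5 only the light chains among them rose further, myl13 by 0.93 and myl10 by 0.57, while the differences of acta1a and actc1a were -0.04 and 0.14. The list's median was 1.88 in the first step and 0.35 in the second, against -0.05 and -0.03 over all probe sets.

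In the list of thin filament and Z disc genes 14 of 24 rose and 1 fell in the first step, and 15 rose and 0 fell in the second, with medians of 0.80 and 0.88. Among these tnnt3a and tnni2a.4, which encode the tropomyosin-binding and inhibitory subunits of fast troponin, rose mostly in the second step: tnnt3a by 1.22 and then 4.42, and tnni2a.4 by 5.12 in the second, after a first difference of 0.14 that did not pass. Of 9 genes that bind thick filaments or fold myosin, 4 rose in the first step and 5 in the second, including mybphb by 2.55 and 1.34 and trim63a, a ubiquitin ligase gene of the sarcomere, by 3.70 and 1.5. For excitation, calcium handling and energy supply, 9 of 22 genes rose and 0 fell in the first step, and 14 rose and 1 fell in the second. Of these atp2a1 rose by 5.86 and 1.58, and ckma by 3.26 and 2.59.

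Among 16 genes of myogenic transcription factors 5 rose and 3 fell in the first step, and 2 rose and 4 fell in the second. The gene myog, whose product drives terminal differentiation of muscle cells, rose by 3.71 and then fell by 0.61, while mef2ca rose by 0.98 and 0.71. The somite transcription factor gene tcf15 had a first difference of -0.22, which did not pass, and fell by 0.90 in the second step. Of 2 slow muscle genes on the array 1 rose in the first step, the slow heavy chain gene smyhc1 by 2.37, and its second difference was 0.17, which did not pass. For heart muscle 7 of 15 rose and 4 fell in the first step, with cmlc1 and myh7 rising by 3.55 and 4.13, and gata5, a transcription factor gene of heart and endoderm, falling by 1.18.

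Lists for other tissues and processes moved over the same interval, in which 10.8% of all probe sets were higher and 10.4% lower. For smooth muscle and nonmuscle myosin and actin 6 of 19 rose and 1 fell in the first step, for yolk and lipid transport 9 of 24 rose and 2 fell, for segmentation and tailbud 1 of 22 rose and 14 fell, and for proliferation 0 of 25 rose and 8 fell. The tailbud gene cdx4 fell by 1.45 and then by 1.96. These lists are given as what else the embryos' RNA held, and their part in the rise of the members was not tested.

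For 5 mM at 21-somites, the contrast that took part in choosing the genes, values of the 11 lists are descriptions without a test. At this dose and stage 0% of all probe sets passed. The list medians were -0.19 for excitation, calcium and energy supply, -0.15 for thin filament and Z disc and -0.10 for other fast myosin and actin genes. They were -0.09 for myogenic transcription factors, -0.05 for slow muscle, -0.04 for heart muscle and -0.009 for thick filament binding and myosin folding. Positive medians were 0.09 for smooth muscle and nonmuscle genes, 0.07 for proliferation, 0.06 for segmentation and tailbud and 0.33 for yolk and lipid transport. The last was computed with control replicate 1, whose mean over the yolk genes was 5.12, against 6.58 and 6.59 in the other controls. The 5 mM arrays had yolk means of 6.25, 6.58 and 6.57. The median over all probe sets was -0.02. Like the medians, single values are descriptions with control replicate 1 included, and they are given for only some of the genes named above. They were -0.80 for tnnt3a, -0.34 for ckma, -0.39 for mef2ca, -0.22 for atp2a1 and 0.02 for myog.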

How the data were processed

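Biotin-labelled cDNA amplified from total RNA was hybridised to 1-colour arrays, per the labels' protocols. The deposited table holds log2 values, a unit read from the values themselves. How the authors corrected background and normalized is not stated in the labels. The members and the gene lists were chosen with earlier results of these data known. In R 4.3.3, limma 3.58.1 fitted 1 model with the 12 groups to 15502 probe sets of 36 arrays, without the 115 control probe sets of the manufacturer, followed by eBayes. Tests were two-sided, with Benjamini-Hochberg adjustment over all probe sets and a threshold of 0.05, and were tested on simulated data. P-values measure only the spread between pooled samples. Symbols came from the platform annotation. Named beside the members are the 3 nearest genes of each and, from the lists, all other fast myosin and actin genes. In each other list the genes open to naming were the 2 with the largest rise and the 1 with the largest fall from 6-somites to Prim-5 at the lower doses. Not all of these are named. From the thin filament, thick filament and excitation lists only the largest rises are, and from the smooth muscle, yolk and proliferation lists none. Alternatives were quantile normalization, 50 added on the linear scale, a trend in eBayes, a filter on dim probe sets, fits to the stages compared, a replicate block, and leaving out arrays. The number of arrays limits the precision.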

Additional observations from a re-analysis of the deposited data

How the results depend on the processing

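In all 84 combinations of a stage step in MTBE arrays and a setting, the 7 rising member probe sets stayed higher. The counts of called members in these steps were between 7 and 9. The steps at 5 mM among them are descriptions. The falls of the 2 DrAffx probe sets of actc1b were less stable at 0.00625 mM, with 0 or 1 passing without 1 array and 1 in the fit to the stages compared, and the filter on dim probe sets took both out of the test. Of 163 alternative counts of called members for doses 0 were above 0. Of 350 alternative dose differences of single genes at 6-somites or 21-somites 0 passed, with a lowest adjusted p of 0.11 (limma). Among 1073 values 17 changed sign, all of small differences that did not pass, and the cause was not tested. With quantile normalization actc1b at 0.00625 mM and 21-somites was at -0.015. Without both controls low in yolk transcripts it was at -0.057, mylpfa at 0.625 mM and 21-somites at 0.0056, and at 5 mM and 6-somites myhz1.3 at 0.043 and mylpfa at -0.044. Leaving out 1 array at a time, the 5 mM differences at 6-somites ran from -0.36 to 0.043 for myhz1.3, from -0.091 to 0.18 for mylpfa and from -0.41 to 0.013 for myl1. At 0.00625 mM they ran from -0.030 to 0.38 for myhz1.3, from -0.11 to 0.31 for myl1 and from -0.31 to 0.11 for mylz3, and for myl1 at 0.625 mM from -0.21 to 0.21. At 21-somites actc1b at 0.00625 mM ran from -0.057 to 0.081 and mylpfa at 0.625 mM from -0.35 to 0.0056. Adding 50 on the linear scale compresses low values: the first control step of myhz1.3 became 3.32 in place of 6.53. The manufacturer's actc1b probe sets were kept in the fit in 1 setting chosen after seeing the data. Correlations between the deviations of arrays with the same replicate number ran from -0.309 to 0.242, and in 0 of 18 pairs of groups were all 3 over 0.1. At 21-somites those of controls with 5 mM were 0.218, 0.0965 and 0.185, and those of 0.00625 mM with 5 mM were -0.176, -0.309 and -0.245. Whether replicate numbers pair the arrays cannot be told from so few arrays. With the replicate block 0 members were called for any dose.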
